A study of Mus musculus with 4 samples.

Results

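Genes that handle unfolded proteins in the endoplasmic reticulum (ER) and shortage of amino acids were followed in regulatory T cells (Tregs), the CD4 lineage that holds other immune cells in check. The members were the 36 genes of ER folding, ER-associated degradation and the Atf4 program whose symbols name probes in the scanner files, out of 22441 gene symbols on the array. They were carried by 52 probes, 26 members by 1 probe and 10 by several. The probe with the highest mean signal stood for a gene, and all 36 are accounted for below. Only Chac1 was not well above background on any array, which left 35 members measured on all 4 arrays.

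The study profiled Tregs of deltaDC mice and wild-type (WT) mice, all male and of the C57BL/6 strain, from spleen and thymus on Agilent one-colour arrays. The 4 groups were deltaDC spleen, WT spleen, deltaDC thymus and WT thymus, with 1 array each, and no agent or further allele is named for any of them. The labels neither spell out deltaDC nor give an age, and no targeted gene is named whose signal could check the genotype. Cells of 3 mice were pooled per genotype and sorted as DAPI-negative cells carrying CD4 and CD25, with no use of Foxp3, after negative selection of splenic CD4 cells or depletion of CD8-bearing thymocytes. Organ and the way the cells were enriched therefore cannot be told apart.

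Between 48.7% and 50.7% of the 59305 non-control spots of an array were well above background, and 0 were saturated. All 9 T cell markers, Foxp3 and Cd4 among them, were well above background on all 4 arrays. A signal below is the background-corrected fluorescence intensity of the probe, scaled so that every array has the same 75th percentile (388). Signals of different probes are not comparable. A difference is the log2 ratio of 2 such signals, and the ± behind it is a spot error, taken from the spread between repeated spots of probes of like brightness. There is no replicate array, so no error between animals or labellings can be given, and precision is limited by the number of arrays. In pooled cells, fewer cells of a type and less RNA per cell cannot be told apart.

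Proteins that fail to fold in the ER are sensed by 3 membrane proteins, Ire1 (gene Ern1), Perk (Eif2ak3) and Atf6. Ire1 splices Xbp1 mRNA, Atf6 is cut to release a transcription factor, and both routes raise chaperones and degradation factors. Perk and its relative Gcn2, which senses uncharged tRNA, slow translation and favour production of Atf4, which switches on amino acid synthesis and stress effectors such as Ddit3 (Chop) and Trib3. In T cells the same machinery serves cells that grow, divide and secrete.

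The stretches before the start sites of some members are shown because the response has known DNA motifs. Of the members that the results below turn on, Asns, Nupr1, Trib3 and Derl3 have a match in the window. Ern1, Sdf2l1 and Ddit4 were searched too and have none. The motifs searched, on both strands and with N for any base, were the ER stress element (CCAAT, then 9 bases, then CCACG), the ER stress element II (ATTGG, then 1 base, then CCACG) and the C/EBP-ATF response element (TGATG, then 1 base, then AAN). The windows ran 250 bases before to 50 bases after each start site in RefSeq's promoter table of build GRCm38.p6, which held 30 of the 36 members. Atf6, Derl1, Erp29, Hyou1, Manf and Sec61a1 were not searched. The ER stress element was found in 6 members (Calr, Canx, Creld2, Derl3, Pdia6, Syvn1) and in 0.119% of all 32851 windows. The ER stress element II was found in Herpud1 and in 0.0365% of all windows. The C/EBP-ATF response element was found in 6 members (Asns, Chac1, Herpud1, Nupr1, Trib3, Txndc5) and in 3.95% of all windows. In the member windows no match of 1 motif overlapped that of another. A match describes letters in the window and shows no binding.

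The 250 bases before the start site are printed 5′ to 3′ on the gene's strand, with the matched motif in capitals. Asns lies at chr6:7693210-7693459, minus strand, and Nupr1 at chr7:126625471-126625720, minus strand, and in both the capitals mark the C/EBP-ATF response element. In Herpud1, at chr8:94386179-94386428, plus strand, the first capitals mark the C/EBP-ATF response element and the second the ER stress element II. Calr at chr8:84846932-84847181, minus strand, Creld2 at chr15:88819396-88819645, plus strand, Derl3 at chr10:75893148-75893397, plus strand and Pdia6 at chr12:17266339-17266588, plus strand have the ER stress element in capitals.
Asns: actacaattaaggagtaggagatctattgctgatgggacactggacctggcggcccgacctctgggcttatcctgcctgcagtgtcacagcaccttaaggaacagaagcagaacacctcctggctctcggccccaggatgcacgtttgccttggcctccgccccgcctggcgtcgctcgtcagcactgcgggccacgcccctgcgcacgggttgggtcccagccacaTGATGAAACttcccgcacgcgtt
Nupr1: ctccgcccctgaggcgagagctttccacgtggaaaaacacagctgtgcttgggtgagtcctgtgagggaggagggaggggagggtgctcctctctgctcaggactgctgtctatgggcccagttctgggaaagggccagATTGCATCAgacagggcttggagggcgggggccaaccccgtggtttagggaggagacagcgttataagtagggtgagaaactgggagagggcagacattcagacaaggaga
Herpud1: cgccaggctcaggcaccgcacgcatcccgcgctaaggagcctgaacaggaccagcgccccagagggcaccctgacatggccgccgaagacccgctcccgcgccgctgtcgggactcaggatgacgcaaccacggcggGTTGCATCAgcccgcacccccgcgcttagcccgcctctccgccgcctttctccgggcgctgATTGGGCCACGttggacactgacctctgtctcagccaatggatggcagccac
Calr: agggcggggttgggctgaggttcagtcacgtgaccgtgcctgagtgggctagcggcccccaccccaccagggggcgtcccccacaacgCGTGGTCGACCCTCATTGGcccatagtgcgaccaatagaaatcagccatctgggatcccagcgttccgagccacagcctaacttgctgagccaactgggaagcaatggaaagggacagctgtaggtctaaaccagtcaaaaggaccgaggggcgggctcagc
Creld2: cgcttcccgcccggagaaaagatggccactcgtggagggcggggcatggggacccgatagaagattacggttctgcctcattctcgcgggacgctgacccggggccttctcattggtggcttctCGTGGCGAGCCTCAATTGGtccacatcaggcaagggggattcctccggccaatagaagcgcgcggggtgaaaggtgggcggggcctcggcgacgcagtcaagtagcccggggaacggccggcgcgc
Derl3: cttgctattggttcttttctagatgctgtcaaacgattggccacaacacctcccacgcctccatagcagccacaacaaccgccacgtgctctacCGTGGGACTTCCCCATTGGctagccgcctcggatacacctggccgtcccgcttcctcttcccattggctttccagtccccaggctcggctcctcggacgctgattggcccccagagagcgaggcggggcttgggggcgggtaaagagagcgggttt
Pdia6: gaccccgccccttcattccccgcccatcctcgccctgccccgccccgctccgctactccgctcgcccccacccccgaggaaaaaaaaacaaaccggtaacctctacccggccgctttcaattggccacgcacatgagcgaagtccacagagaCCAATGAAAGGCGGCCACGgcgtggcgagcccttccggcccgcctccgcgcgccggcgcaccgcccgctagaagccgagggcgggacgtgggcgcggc

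In splenic Tregs most of these genes had a higher signal on the deltaDC array than on the WT array, but few by much. Of the 35 measured members, 30 lay above 0, beside 49.2% of all 12593 genes measured on both spleen arrays. The members' median difference was 0.26 and that of all genes was -0.01. Because the members were chosen with earlier results of these data known, their distance from all genes is a description and no independent support. 5 members were at least 2-fold higher (Nupr1, Asns, Ern1, Atf6 and Sdf2l1) and 0 were at least 2-fold lower, where 6.39% of genes were 2-fold higher, 1.99% were 2-fold lower and thus 8.39% differed either way. At 1.5-fold the same 5 members were higher and 1, Trib3, was lower, beside 11.0% and 7.41% of genes. All 5 were among the 13 members with a mean spleen signal under 1000, a class in which 13.7% of genes differed 2-fold either way. The 22 brighter members ranged between -0.37 and 0.52, with 0 of them 2-fold different, beside 3.33% of genes that bright.

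In thymic Tregs the same genes were close to the bulk of the array. Of the 35 members, 21 lay above 0, beside 60.1% of all 13108 genes measured on both thymus arrays, and the members' median, 0.05, was the same as that of all genes, 0.05. 0 members were at least 2-fold higher and 1, Ddit4, was at least 2-fold lower, beside 0.923% and 0.687% of genes, or 1.61% either way. At 1.5-fold 1 member was higher (Nupr1) and 2 were lower (Ddit4 and Derl3), beside 2.94% and 2.98%. With 1 array a group these are descriptions of 2 arrays each, with no test.

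The arrays can also be compared all together. The deltaDC spleen array gave the highest of the 4 signals for 22 of the 35 members, or 62.9%, beside 29.0% of 12345 genes measured on all 4 arrays. It gave the lowest for 1 member, Phgdh by its brightest probe, beside 24.5% of genes. On both Phgdh probes of chromosome 3, WT spleen was lowest instead, at 6872 and 6899 against 6975 and 7256 on deltaDC spleen. WT spleen was the lowest array for 14 members, beside 24.6% of genes, and the highest for 4, beside 31.8%. The deltaDC thymus array was the highest for 7 members, beside 25.4% of genes, and the lowest for 9, beside 20.2%. WT thymus was the highest for 2, beside 13.8%, and the lowest for 11, beside 30.7%. Ern1, Sdf2l1 and Nupr1 exceeded each of the 3 others by at least 2-fold on deltaDC spleen, as did 2.47% of genes.

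**Figure D1:**
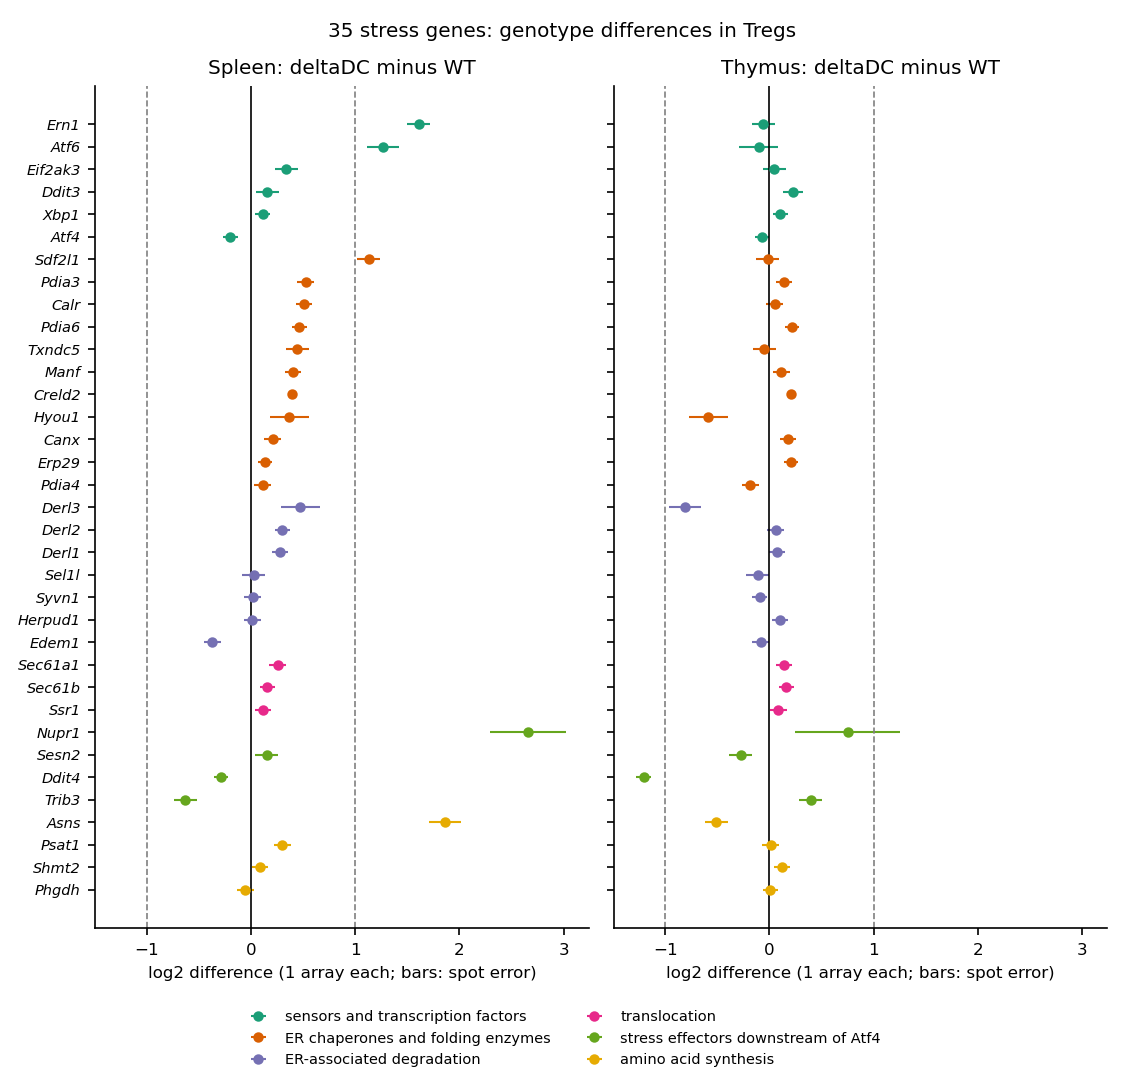
The log2 difference of deltaDC minus WT is plotted for the 35 measured members in spleen (left) and thymus (right), with 1 array per genotype and organ. Points are coloured by role, horizontal bars are the spot error and dashed lines mark 2-fold. Nupr1, Asns, Ern1, Atf6 and Sdf2l1 lie past the right dashed line in spleen, and Ddit4 lies past the left one in thymus.

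The 6 sensors and transcription factors split in spleen. Ern1, the Ire1 kinase and RNase, gave a signal of 866 on the deltaDC spleen array, 283 on the WT spleen array, 299 on the deltaDC thymus array and 311 on the WT thymus array. The deltaDC spleen array stood above the other 3, which were close to each other. The difference was 1.61 ± 0.11 in spleen and -0.06 ± 0.11 in thymus. Another Ern1 probe above background on both spleen arrays also gave deltaDC the higher signal, with 51.2 in deltaDC spleen and 28.2 in WT spleen, a difference of 0.86 that is under 2-fold, and the median over the gene's probes gave 0.69.

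Atf6, the sensor that is cut in the Golgi, gave 331 on the deltaDC spleen array, 138 on the WT spleen array, 176 on the deltaDC thymus array and 189 on the WT thymus array. Here too deltaDC spleen was highest, but WT spleen was the lowest of the 4 and both thymus arrays lay between. The difference was 1.26 ± 0.15 in spleen and -0.10 ± 0.19 in thymus, and with normexp background correction the spleen value was 0.97, just under 2-fold. Perk, the third sensor (Eif2ak3), gave 842 on the deltaDC spleen array, 667 on the WT spleen array, 760.1 on the deltaDC thymus array and 736 on the WT thymus array. Its spleen difference of 0.34 ± 0.11 had the same sign and was much smaller than those of Ern1 and Atf6.

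The transcription factors downstream of the sensors differed little. Xbp1, the factor whose mRNA Ire1 splices, gave 10962 on the deltaDC spleen array, 10142 on the WT spleen array, 11496 on the deltaDC thymus array and 10684 on the WT thymus array, a difference of 0.11 in spleen and 0.11 in thymus. The array measures the level of Xbp1 mRNA and not its splicing. Atf4, whose production is set at translation, gave 33905 on the deltaDC spleen array, 38894 on the WT spleen array, 27736 on the deltaDC thymus array and 29135 on the WT thymus array. It was lower in deltaDC mice in both organs, with differences of -0.20 ± 0.07 in spleen and -0.07 in thymus. Ddit3, the factor Chop that promotes cell death under lasting stress, gave 835 on the deltaDC spleen array, 748 on the WT spleen array, 950.3 on the deltaDC thymus array and 812 on the WT thymus array, with deltaDC the higher of the genotypes by 0.16 in spleen and 0.23 in thymus.

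All 11 ER chaperones and folding enzymes had a higher signal in deltaDC spleen than in WT spleen. Their median difference was 0.40, and 1 of the 11, Sdf2l1, was 2-fold. In thymus 7 of the 11 lay above 0 with a median of 0.11, beside 60.1% of all genes and a median of 0.05. Sdf2l1, a partner of the ER Hsp70 chaperone that limits aggregation, gave 684 on the deltaDC spleen array, 313 on the WT spleen array, 332 on the deltaDC thymus array and 335 on the WT thymus array. The deltaDC spleen array was alone, with the other 3 nearly level, and the difference was 1.13 ± 0.11 in spleen and -0.02 ± 0.11 in thymus. Under normexp correction its spleen value was 0.98.

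The glycoprotein folding cycle is represented by the lectin chaperones calreticulin (Calr) and calnexin (Canx) and the disulfide isomerase that works with them, Pdia3. Calr gave 10416 on the deltaDC spleen array, 7318 on the WT spleen array, 7839 on the deltaDC thymus array and 7566 on the WT thymus array. Pdia3 gave 6360 on the deltaDC spleen array, 4422 on the WT spleen array, 4298 on the deltaDC thymus array and 3899 on the WT thymus array. For both, deltaDC spleen was the highest array and the other 3 lay in a narrower band, with spleen differences of 0.51 ± 0.08 for Calr and 0.52 ± 0.08 for Pdia3. Canx gave 8324 on the deltaDC spleen array, 7202 on the WT spleen array, 10178 on the deltaDC thymus array and 8997 on the WT thymus array, so that deltaDC was higher by 0.21 in spleen and 0.18 in thymus and thymus was the brighter organ in both genotypes.

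Among the other oxidoreductases, Pdia6, which also restrains Ire1, gave 21139 on the deltaDC spleen array, 15321 on the WT spleen array, 18701 on the deltaDC thymus array and 16087 on the WT thymus array. By this probe deltaDC was higher in both organs, by 0.46 ± 0.07 in spleen and 0.22 ± 0.07 in thymus, whereas another probe gave 0.54 in spleen and -0.21 in thymus. Txndc5, a thioredoxin-domain protein, gave 572 on the deltaDC spleen array, 419.7 on the WT spleen array, 302 on the deltaDC thymus array and 312 on the WT thymus array, with a spleen difference of 0.45 ± 0.11. Pdia4 and Erp29 differed by 0.11 and 0.14 in spleen, and by -0.18 and 0.21 in thymus.

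Creld2, a secreted ER stress protein, is the member measured with the most precision, since its probe was spotted 10 times on every array. Its spots ranged between 6559 and 7366 in deltaDC spleen and between 5071 and 5603 in WT spleen. They ranged between 5722 and 6449 in deltaDC thymus and between 5022 and 5541 in WT thymus. The spots of the genotypes did not overlap in either organ, but how many other repeatedly spotted probes also separated was not counted. The Creld2 difference exceeded that of 83.9% of genes in spleen and 78.4% of genes in thymus. The difference was 0.39 ± 0.03 in spleen and 0.21 ± 0.03 in thymus, so that spot noise was small beside it, although the spots of an array share 1 RNA pool.

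Manf, a secreted ER stress factor, gave 2016 on the deltaDC spleen array, 1525 on the WT spleen array, 1518 on the deltaDC thymus array and 1402 on the WT thymus array. Its spleen difference was 0.40 ± 0.08 and its thymus difference 0.11 ± 0.08. Hyou1, the ER Hsp110 chaperone that helps exchange nucleotides, was dim and went opposite ways by organ, with 143 on the deltaDC spleen array, 111 on the WT spleen array, 87.3 on the deltaDC thymus array and 131 on the WT thymus array. It was higher in deltaDC spleen by 0.37 ± 0.19 and lower in deltaDC thymus, at -0.58 ± 0.19. With normexp correction these values were 0.17 and -0.36.

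The 7 genes of ER-associated degradation, which draws misfolded proteins out of the ER to the proteasome, had medians near 0 in both organs, with Derl3 and Edem1 farthest from it. In spleen 6 of the 7 lay above 0 with a median of 0.03, and in thymus 3 of the 7 with a median of -0.08. Herpud1, a scaffold of the retrotranslocation complex, gave 5454 on the deltaDC spleen array, 5403 on the WT spleen array, 3100 on the deltaDC thymus array and 2892 on the WT thymus array. The genotypes differed by 0.01 ± 0.08 in spleen and 0.10 ± 0.08 in thymus, while both thymus arrays lay below both spleen arrays.

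Edem1, a mannosidase-like factor that hands glycoproteins over for degradation, was the only one of the 7 below 0 in spleen. It gave 4456 on the deltaDC spleen array, 5759 on the WT spleen array, 4398 on the deltaDC thymus array and 4661 on the WT thymus array, and WT spleen was the highest array, with a spleen difference of -0.37 ± 0.08. The ubiquitin ligase Syvn1 (Hrd1) and its partner Sel1l differed by 0.02 and 0.03 in spleen. The derlins Derl1 and Derl2, which form part of the exit channel, differed by 0.28 ± 0.08 and 0.30 ± 0.08 in spleen, and by 0.07 and 0.06 in thymus. The other probe of Derl1 gave 0.35 in spleen, while those of Derl2 gave 0.43 and -0.25, so that 1 of 3 Derl2 probes ran the other way.

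Derl3, the derlin known from secretory tissues, had another order of arrays than Derl1 and Derl2. It gave 97.4 on the deltaDC spleen array, 70.0 on the WT spleen array, 159.5 on the deltaDC thymus array and 279.9 on the WT thymus array. WT thymus was the highest array and WT spleen the lowest, with both deltaDC arrays between them. The genotype difference was 0.48 ± 0.19 in spleen and -0.81 ± 0.15 in thymus. With normexp correction these were 0.19 and -0.60.

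The 3 translocation genes, for the channel through which new proteins enter the ER, were each higher in deltaDC by a small step in both organs by their brightest probe, but not by every probe. Sec61a1, the channel subunit, gave 8932 on the deltaDC spleen array, 7478 on the WT spleen array, 7905 on the deltaDC thymus array and 7178 on the WT thymus array, or 0.26 ± 0.08 in spleen and 0.14 ± 0.08 in thymus. Sec61b, another channel subunit, differed by 0.16 ± 0.07 in spleen and 0.16 ± 0.07 in thymus. Ssr1, of the complex beside the channel, differed by 0.12 ± 0.08 in spleen and 0.09 ± 0.08 in thymus. The thymus steps stand beside an all-gene median of 0.05, with 60.1% of genes above 0. That all-gene median was -0.01 when arrays were scaled by a percentile over detected probes, so small thymus steps depend on the scaling. The other Ssr1 probes, dimmer but well above background, gave -0.54 and 0.04 in spleen and -0.33 and -0.24 in thymus, so the direction depends on the probe.

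The stress effectors downstream of Atf4 did not share a direction. Of the 4 measured, 2 lay above 0 and 2 below in spleen, with a median of -0.07. Nupr1, a small stress-induced chromatin protein, gave 333 on the deltaDC spleen array, 52.7 on the WT spleen array, 38.6 on the deltaDC thymus array and 22.9 on the WT thymus array. The deltaDC spleen array was far above the other 3, all of which were dim. The difference of 2.66 ± 0.36 in spleen exceeded that of 99.1% of genes, and the thymus difference was 0.75 ± 0.50. With normexp correction these were 1.71 and 0.24.

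Trib3, a pseudokinase that restrains Atf4 and Akt, ran the other way in spleen and gave 529 on the deltaDC spleen array, 820.1 on the WT spleen array, 492 on the deltaDC thymus array and 374 on the WT thymus array. WT spleen was the highest array and WT thymus the lowest. The difference was -0.63 ± 0.11 in spleen and 0.40 ± 0.11 in thymus. Ddit4 (Redd1), an inhibitor of the growth kinase complex mTORC1 that is also induced by hypoxia and glucocorticoids, gave 35121 on the deltaDC spleen array, 42822 on the WT spleen array, 13121 on the deltaDC thymus array and 30294 on the WT thymus array. Its deltaDC thymus signal was at least 2-fold below every other array, as for 0.146% of genes, and the difference was -0.29 ± 0.07 in spleen and -1.21 ± 0.07 in thymus.

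Sesn2, a leucine sensor that holds mTORC1 back, gave 549 on the deltaDC spleen array, 494 on the WT spleen array, 469 on the deltaDC thymus array and 567 on the WT thymus array. Its difference was 0.15 ± 0.11 in spleen and -0.27 ± 0.11 in thymus. Chac1, an enzyme that breaks down glutathione, gave 6.96 on the deltaDC spleen array, 4.25 on the WT spleen array, 16.3 on the deltaDC thymus array and 14.4 on the WT thymus array. None of these Chac1 signals was well above background, so no difference is given for it.

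Of the 4 amino acid synthesis genes, Asns stood apart. Asns, asparagine synthetase and a classic Atf4 target, gave 645 on the deltaDC spleen array, 177 on the WT spleen array, 244 on the deltaDC thymus array and 347 on the WT thymus array. The highest array was deltaDC spleen and the lowest WT spleen, with both thymus arrays between and in the opposite order of genotypes. The difference was 1.87 ± 0.15 in spleen and -0.51 ± 0.11 in thymus. Both were larger than their spot errors.

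The 3 genes of serine and glycine synthesis were within 2-fold between genotypes. Psat1, the aminotransferase of the pathway, gave 2870 on the deltaDC spleen array, 2330 on the WT spleen array, 3303 on the deltaDC thymus array and 3274 on the WT thymus array, or 0.30 ± 0.08 in spleen and 0.01 ± 0.08 in thymus. Its dimmer second probe gave 532 in deltaDC spleen and 343 in WT spleen, a difference of 0.63, and 0.01 in thymus. Shmt2, the mitochondrial enzyme that turns serine into glycine, differed by 0.09 in spleen and 0.12 in thymus. Phgdh, the first enzyme of the pathway, differed by -0.05 in spleen and 0.01 in thymus. The brightest Phgdh probe maps to chromosome 17 in the files' mm9 coordinates, and the pair of Phgdh probes on chromosome 3 gave spleen differences of 0.02 and 0.07 and thymus differences of 0.08 and 0.01.

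**Figure D2:**
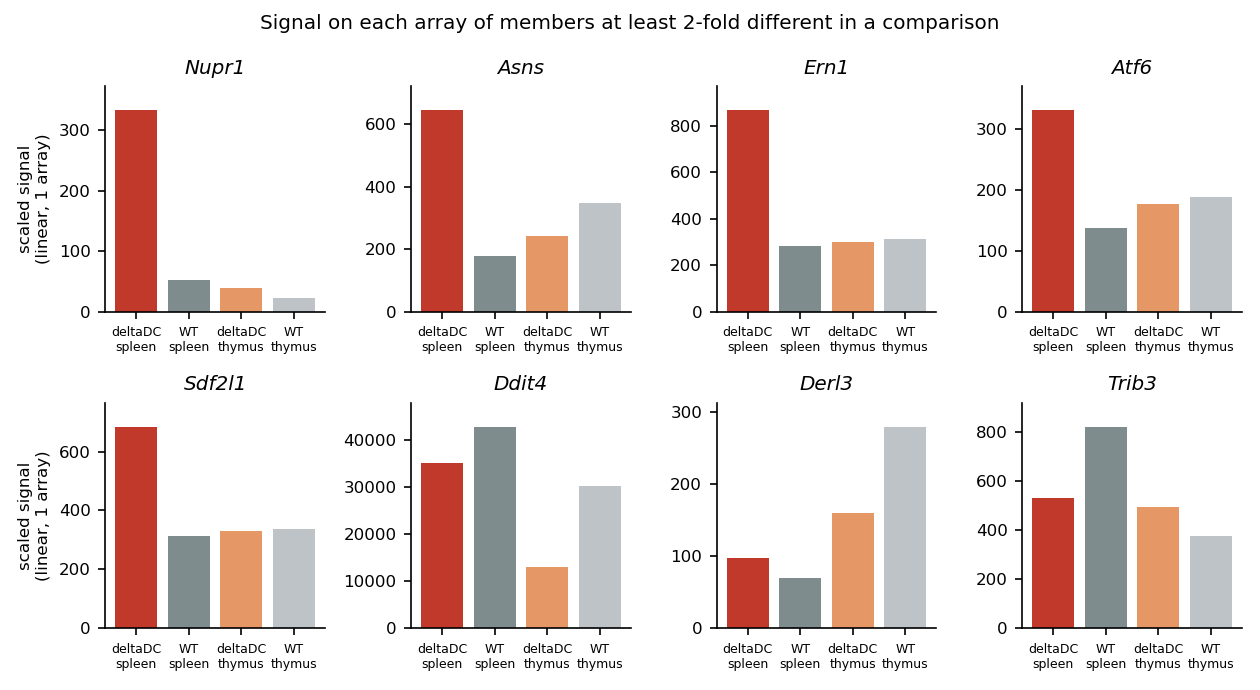
Bars give the scaled signal (linear, from 0) of the 8 members at least 2-fold different in a comparison of 2 arrays, with 1 array per bar and a separate scale per gene. Nupr1, Ern1 and Sdf2l1 are high on the deltaDC spleen array alone, Ddit4 is low on the deltaDC thymus array, and Derl3 is highest on the WT thymus array.

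The genotype difference was not alike in the organs for several members. The spleen difference exceeded the thymus difference by at least 2-fold for 6 members, Asns, Nupr1, Ern1, Atf6, Derl3 and Sdf2l1, and fell short of it by at least 2-fold for 1, Trib3. Among 12345 genes 6.59% exceeded it and 2.32% fell short of it by that much, or 8.92% either way. The count of members either way was 7, and it was 5 with normexp correction and 8 with quantile scaling. This double difference was 2.38 ± 0.19 for Asns, 1.67 ± 0.16 for Ern1 and -1.03 ± 0.16 for Trib3. It was 1.36 ± 0.24 for Atf6, 1.29 ± 0.24 for Derl3, 1.15 ± 0.16 for Sdf2l1 and 1.91 ± 0.62 for Nupr1. Over the members its median was 0.24, with 26 of 35 above 0, and over all genes its median was -0.06, with 42.4% above 0. It could not be tested, since it would use the last residual degree of freedom.

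A linear model of genotype and organ over the 4 arrays was the only test the design allowed. It was fitted with limma to 13568 genes with 1 residual degree of freedom. For genotype, 0 of 35 members passed an adjusted p of 0.05, beside 0.0% of genes, and the lowest adjusted p of a member was 0.807 in limma. No member and 4.36% of genes had an unadjusted p under 0.05. The model takes 1 genotype effect for both organs, so members that differ in 1 organ only add to its residual.

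Other genes of the same pathways, 114 in all and not members, differed less in spleen than the members did. Members and lists were chosen with earlier results of these data known, so this contrast is a description and no independent support. In spleen 103 were measured, of which 67 lay above 0, 1 was 2-fold higher and 1 was 2-fold lower, and their median was 0.09. The 2-fold higher gene was Ero1a, the oxidase that recharges disulfide isomerases, with 195 on the deltaDC spleen array, 96.2 on the WT spleen array, 92.3 on the deltaDC thymus array and 109 on the WT thymus array and a spleen difference of 1.02 ± 0.19. The 2-fold lower gene was Ppp1r15a (Gadd34), which directs a phosphatase to undo the translation block set by Perk and Gcn2. Ppp1r15a gave 4268 on the deltaDC spleen array, 9716 on the WT spleen array, 4326 on the deltaDC thymus array and 12414 on the WT thymus array. It was lower in deltaDC mice in both organs, with differences of -1.19 ± 0.08 in spleen and -1.52 ± 0.08 in thymus.

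By group, 14 of 17 other ER chaperones and folding enzymes lay above 0 in spleen with a median of 0.22, among them the abundant Hsp90b1 at 0.51 and Hspa5 (BiP) at 0.28. Of the other translocation genes 16 of 20 did, with a median of 0.12, led by the signal peptidase subunit Sec11c at 0.85 ± 0.08. Of the other signalling genes 10 of 15 did, with a median of 0.18, led by the transcription factor Creb3l2 at 0.84 ± 0.19. Of the other degradation genes 10 of 17 did, with a median of 0.04, and the lowest was the deglycosylating enzyme Ngly1 at -0.55 ± 0.19.

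The amino acid groups were split evenly in spleen. Of the other genes of amino acid synthesis and transport 7 of 14 lay above 0, with a median of -0.03. Of the aminoacyl-tRNA synthetases 10 of 20 did, with a median of -0.01, and the lowest was Eprs at -0.45 ± 0.50, from a dim probe. In thymus 74 of the measured genes of these lists lay above 0 and 33 below, with 0 at least 2-fold higher, 1 at least 2-fold lower (Ppp1r15a) and a median of 0.07. Of all genes 60.1% lay above 0 in thymus, and their median was 0.05. The highest in thymus were the protease Mbtps2, which cuts Atf6, at 0.59 ± 0.15, the lysyl-tRNA synthetase Kars at 0.42 ± 0.08 and the amino acid transporter Slc7a5 at 0.42 ± 0.11. The lowest after Ppp1r15a were Pycr1, an enzyme of proline synthesis that was dim on these arrays, at -0.84 ± 0.50 and Sec61a2 at -0.27 ± 0.19.

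**Figure D3:**
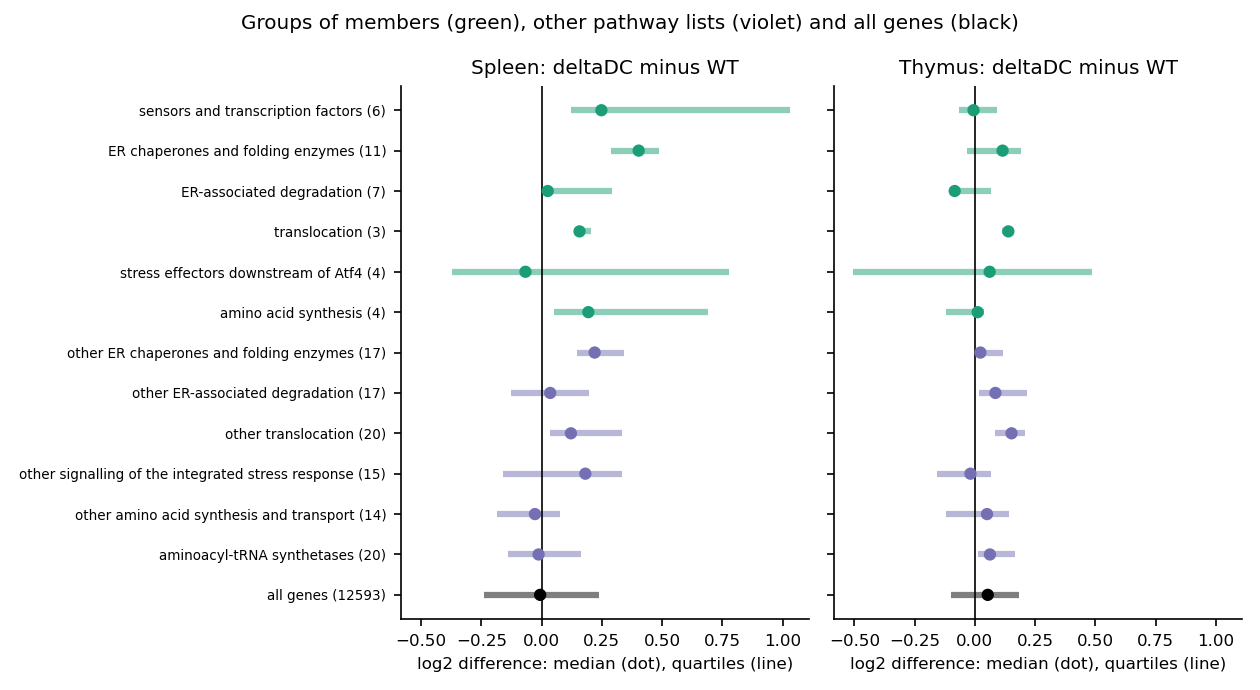
The median log2 difference of deltaDC minus WT (dot) with its quartiles (line) is shown for the 6 groups of members (green), the 6 lists of other pathway genes (violet) and all genes (black), in spleen (left) and thymus (right). Numbers in brackets are the genes measured on both spleen arrays. In spleen the member chaperones sit highest, at 0.40, and all genes sit at -0.01.

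Markers of cell states and of other cell types also differed between the spleen arrays, and their part in the members' differences was not tested. The marker lists too were chosen with earlier results of these data known, so their counts are a description and no independent support. All 10 effector Treg markers were at least 2-fold higher in deltaDC spleen, beside 6.39% of all genes. Their summed signal was 78856 in deltaDC spleen and 18926 in WT spleen. Of 10 measured markers of dividing cells 7 were at least 2-fold higher, with sums of 38567 in deltaDC spleen and 18574 in WT spleen. Whether Tregs or other sorted cells carried these markers cannot be told apart in pooled cells sorted without Foxp3. In thymus 0 of 9 effector Treg markers and 0 of 10 dividing-cell markers were 2-fold higher, with medians of 0.04 and -0.17.

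Plasma cells, which carry much ER, were checked with 8 markers on the array. In spleen 5 were well above background in deltaDC spleen and 3 in WT spleen. The 3 measured on both, Jchain, Irf4 and Eaf2, lay above 0 with a median of 0.46, and 0 of them were 2-fold higher. The summed signal of the list was 14826 in deltaDC spleen and 13381 in WT spleen. Which sorted cells carried these 3 markers was not tested, so the sums are no measure of plasma cells alone. Ighm, Tnfrsf17 and Fkbp11 were not well above background on either spleen array. Sdc1 was well above background only in deltaDC spleen, at 47.8 against 11.9 in WT spleen, which is at least 2.45-fold higher. So was Mzb1, at 26.4 against 9.64, or at least 1.35-fold higher. B cell markers had sums of 2171 in deltaDC spleen and 2229 in WT spleen, with 0 of 4 measured markers 2-fold higher.

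Of 8 measured NK cell markers 6 were 2-fold higher in deltaDC spleen and another 2 were so by a bound, with sums of 32542 in deltaDC spleen and 4151 in WT spleen. Of 9 measured markers of innate-like T and innate lymphoid cells 7 were 2-fold higher, with sums of 16899 in deltaDC spleen and 7638 in WT spleen. Of 8 measured macrophage and monocyte markers 4 were, with sums of 3158 in deltaDC spleen and 1817 in WT spleen. Of 9 neutrophil markers 3 were measured on both, of which 1 was 2-fold higher, and 6 more were at least 2-fold higher by a bound, with sums of 49626 in deltaDC spleen and 53823 in WT spleen that are mostly Csf3r. Of 10 dendritic cell markers 3 were measured on both, of which 1 was 2-fold lower, and 2 more were 2-fold higher by a bound. All 3 measured erythroid markers were 2-fold higher, with sums of 5630 in deltaDC spleen and 2020 in WT spleen.

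Several marker lists also differed between the thymus arrays. Of 8 measured B cell markers 5 were 2-fold higher in deltaDC thymus, with sums of 7327 in deltaDC thymus and 3617 in WT thymus. Of 7 measured neutrophil markers 5 were 2-fold higher, with a median of 1.08. All 3 measured erythroid markers were, with sums of 16343 in deltaDC thymus and 3978 in WT thymus. All 8 measured NK cell markers lay above 0 with a median of 0.72, and 1 was 2-fold higher. The lists of innate-like T and innate lymphoid cells (10 measured) and of macrophages and monocytes (7 measured) each had 1 marker 2-fold higher, with medians of 0.32 for both. Of 7 measured dendritic cell markers 2 were 2-fold lower in deltaDC thymus and 6 lay below 0, with a median of -0.29, and 1 more was 2-fold lower by a bound. Of 4 measured plasma cell markers 1 lay above 0, with sums of 17033 in deltaDC thymus and 22657 in WT thymus. The part of these cells in the members' thymus differences, that of Ddit4 included, was not tested.

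The organs were compared within each genotype. These comparisons share their arrays with the genotype comparisons, so they are other views of the same 4 signals and no independent support. In deltaDC mice 8 of 35 members were higher in deltaDC thymus than in deltaDC spleen, with a median of -0.29, beside 48.1% of 12866 genes and a median of -0.02. In WT mice the members were balanced, with 18 of 35 higher in WT thymus than in WT spleen and a median of 0.01, beside 41.3% of 12542 genes and a median of -0.08. Marker lists also differed between the organs, and their part in the members' organ differences was not tested. Of 10 measured dividing-cell markers, 8 were 2-fold higher in WT thymus than in WT spleen, and 0 differed 2-fold in deltaDC mice. Immature thymocyte markers had sums of 61519 in WT thymus and 7101 in WT spleen, and 57326 in deltaDC thymus and 6412 in deltaDC spleen.

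In deltaDC mice 0 members were 2-fold higher in thymus and 5 were 2-fold lower (Nupr1, Ern1, Ddit4, Asns and Sdf2l1), beside 5.37% and 6.16% of genes, or 11.5% either way. In WT mice 1 member was at least 2-fold higher in thymus, Derl3, and 2 were at least 2-fold lower, Nupr1 and Trib3, beside 6.48% and 3.06% of genes, or 9.54% either way. At 1.5-fold 2 members were higher and 10 lower in deltaDC thymus, beside 11.2% and 12.6% of genes, and 3 were higher and 3 lower in WT thymus, beside 11.5% and 11.6%. Derl3 was 1.64-fold higher in deltaDC thymus than in deltaDC spleen, and 4.00-fold higher in WT thymus than in WT spleen, and normexp correction gave log2 differences of 0.43 in deltaDC mice and 1.21 in WT mice. Trib3 differed by -0.11 ± 0.11 in deltaDC mice and by -1.13 ± 0.11 in WT mice. Nupr1 was lower in thymus in both genotypes, with -3.11 ± 0.36 in deltaDC mice and -1.20 ± 0.50 in WT mice, or -2.02 and -0.55 with normexp correction.

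Asns was lower in thymus in deltaDC mice, at -1.40 ± 0.11, and higher in thymus in WT mice, at 0.97 ± 0.15. Ern1 was lower in thymus in deltaDC mice, at -1.53 ± 0.11, and close to level between the organs in WT mice, at 0.13 ± 0.11. Sdf2l1 showed the same pattern, with -1.05 ± 0.11 in deltaDC mice and 0.10 ± 0.11 in WT mice. Ddit4 was lower in thymus in both, with -1.42 ± 0.07 in deltaDC mice and -0.50 ± 0.07 in WT mice.

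Among the members with like organ differences in both genotypes, some differed between the organs by more than their spot errors. Herpud1 was lower in thymus, with -0.81 ± 0.08 in deltaDC mice and -0.90 ± 0.08 in WT mice. Derl2 was lower too, with -0.71 in deltaDC mice and -0.47 in WT mice, although its other probes gave -0.59 and 0.04 in deltaDC mice and -0.17 and -0.28 in WT mice. Phgdh was higher in thymus, by 0.74 in deltaDC mice and 0.68 in WT mice, and its pair of chromosome 3 probes gave 0.82 and 0.71 in deltaDC mice and 0.76 and 0.77 in WT mice. Shmt2 was higher in thymus as well, by 0.56 in deltaDC mice and 0.53 in WT mice.

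In the limma model 0 of 35 members passed for organ at an adjusted p of 0.05, beside 0.479% of genes. The lowest adjusted p of a member in limma was 0.153, for Herpud1. 7 of 35 members had an unadjusted p under 0.05, a share close to the 20.2% of all genes, so this count does not set the members apart. Of these 7, Phgdh, Shmt2 and Derl3 were higher in thymus, and Herpud1, Nupr1, Derl2 and Txndc5 were lower. The count of all genes that passed for organ was 65, and it was 217 with normexp correction, 60 with the median over probes and 0 under the 5 other settings.

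**Figure D4:**
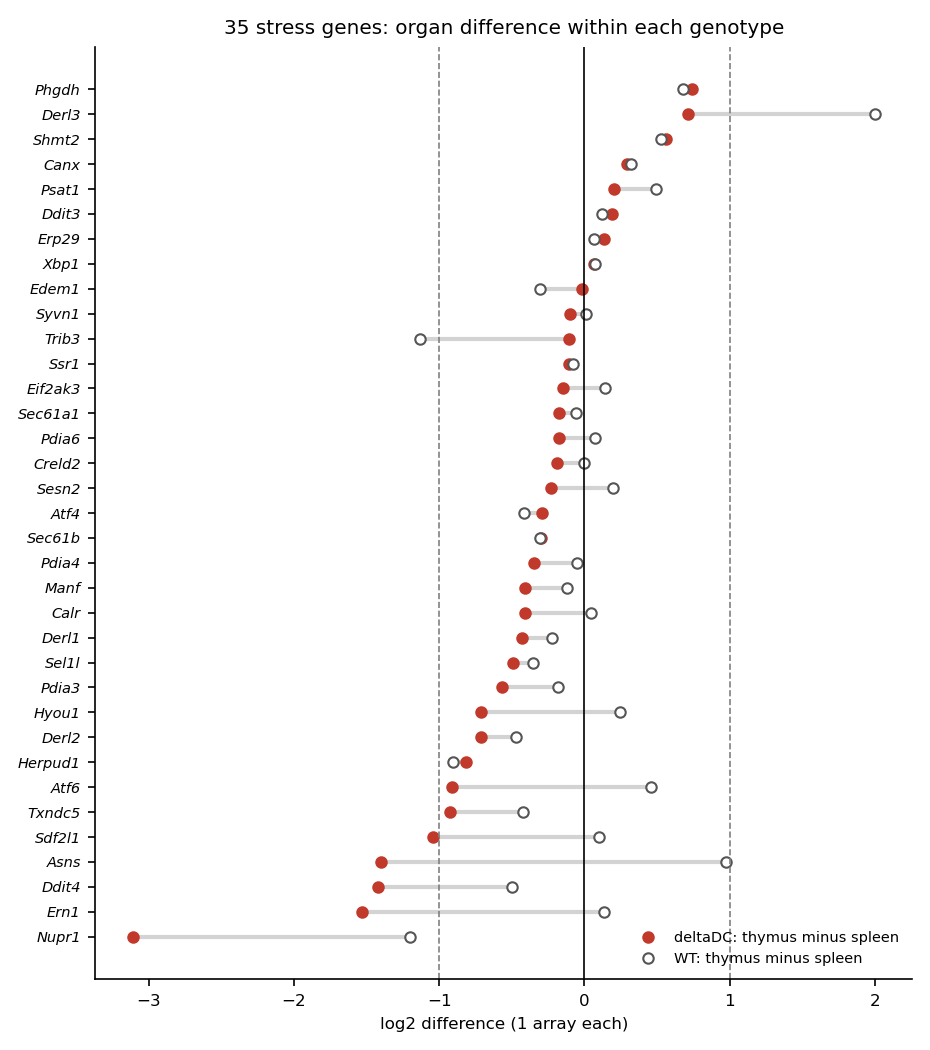
For each of the 35 measured members the log2 difference of thymus minus spleen is drawn for deltaDC mice (filled) and WT mice (open), with 1 array per genotype and organ and dashed lines at 2-fold. Herpud1, Phgdh and Shmt2 have both points close together, while Asns, Ern1, Atf6, Sdf2l1 and Nupr1 have the deltaDC point far to the left of the WT point.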

How the data were processed

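RNA of sorted Tregs was labelled with Cy3 and hybridised to 4 one-colour arrays, per the labels. The deposited scanner files, per the file headers, give fluorescence intensity from Agilent Feature Extraction 10.7.3.1, background-subtracted within an array and not scaled between arrays, and other columns of 0 or 1 flags (outlier, saturated, well above background). The authors also deposited a matrix, per its file header background-subtracted, quantile-normalized and log2-transformed. Its column medians are 4.11 (deltaDC spleen), 4.10 (WT spleen), 4.10 (deltaDC thymus) and 4.15 (WT thymus), and each column correlated best with its own scanner array (Pearson r 0.997, over genes, which are not independent replicates). Direction and log scale thus follow the scanner files, nothing was centred on 0, and any offset stays unknown. The matrix served as an alternative.

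Outlier spots (110 to 168 an array) were removed, and no member probe lost its value. Log2 intensities were set relative to each array's 75th percentile over the 59305 non-control spots, spots of a probe were averaged, and signals were returned to 1 common percentile. Genes were named by accession or symbol through RefSeq tables, and 47 of the 52 member probes had an accession that names the same symbol, while 5 had one not listed there. Probe positions in the files are mm9. Genes well above background on both arrays were counted at 2-fold, and a gene dim on 1 array was given a bound, the bright signal divided by whichever was larger on the dim array, the gene's signal or the lowest signal well above background. The additive model used limma 3.58.1 in R 4.3.3 (lmFit, eBayes, two-sided, Benjamini-Hochberg over all genes tested) on genes detected that way on at least 2 arrays, and was tested on simulated data. Its prior had 1.84 degrees of freedom.

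Alternatives were normexp (offset 50), quantile scaling, a percentile over detected probes, other filters on dim probes, the median over probes, other probes, the matrix and a 1.5-fold call. The members and all lists were chosen with earlier results of these data known. Values on every array were meant for members 2-fold different in a comparison, past the model, or among the 5 highest or 5 lowest between genotypes. Those of other members were added after their values were seen, as were Hsp90b1 and Hspa5. Of the pathway lists the 3 highest and 3 lowest per organ, and any 2-fold gene, were named.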

Additional observations from a re-analysis of the deposited data

How the results depend on the processing

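The 14 named differences of at least 2-fold gave 58 values under alternatives that could move them, leaving out filters on dim probes and, for members with 1 probe, the median over probes. Of these 52 stayed 2-fold in the same direction, 6 were under 2-fold and 0 changed sign. The 6 were Ern1 in spleen by another probe (0.86) and by the median over probes (0.69), and, with normexp correction, Atf6 (0.97) and Sdf2l1 (0.98) in spleen, Nupr1 in WT thymus against WT spleen (-0.55) and Sdf2l1 in deltaDC thymus against deltaDC spleen (-0.91). Of the counts and medians of members, 15 alternative values moved away from those reported. With normexp 3 members were 2-fold higher in deltaDC spleen and 1 was 2-fold lower in WT thymus. With quantile scaling the organ median was -0.20 in deltaDC mice and 0.11 in WT mice, and with the authors' deposited matrix it was 0.11 in WT mice, while 1 member (Nupr1, 1.04) was 2-fold higher in deltaDC thymus. A percentile over detected probes gave 2 members 2-fold higher in WT thymus (Asns at 1.04), as did no filter on dim probes, which also gave 1 in deltaDC thymus against deltaDC spleen. At 1.5-fold, 1 member was lower in deltaDC spleen, 1 higher and 2 lower in deltaDC thymus, 2 higher and 10 lower in deltaDC thymus than in deltaDC spleen, and 3 higher in WT thymus than in WT spleen. The cause of these shifts was not tested, apart from the lower threshold and the wider set of probes.

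Over all genes, 805 were 2-fold higher and 251 lower in deltaDC spleen, and 121 higher and 90 lower in deltaDC thymus. With normexp these were 486 and 84 in spleen, and 36 and 21 in thymus. With no filter they were 1752 and 1367 in spleen, and 951 and 713 in thymus. No paired analysis was possible because the groups share only replicate number 1, so numbers form no block. Mice were pooled per genotype, so genotype cannot be told apart from a difference between pools. Organ already stands as a term beside genotype in the model. With 1 array a group, no array could be left out, since the model would then have no residual degree of freedom. Signals under 50 before scaling, those of Nupr1 outside deltaDC spleen among them, carried a spot SD of 0.36 on the log2 scale, against 0.05 to 0.13 for brighter probes.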
